A study of Drosophila melanogaster with 63 samples.

Results

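Binding sites of the insulator protein Mod(mdg4) were mapped in 2 ways in Drosophila Kc167 cells, a female line derived from embryos. In mock-treated Kc167 cells, chromatin was precipitated with an antibody against the Mod(mdg4)67.2 isoform (3 libraries). In the Kc-MOD-GFP line, labelled as transfected, it was precipitated with an antibody against GFP, the green fluorescent protein (3 libraries). The DNA was sequenced (ChIP-seq), and the authors called peaks in each library. Peaks of the 6 libraries that shared at least 1 bp were merged, which gave 3316 sites among the 13309 that all 46 peak lists of the series gave. Of these, 2457 were found by both maps, 328 by the 67.2 antibody only and 531 by GFP only. A site counted for a map if any of its 3 libraries had a peak there.

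Each map used its own antibody and its own cell line, so the antibody and the line cannot be told apart. The isoform fused to GFP, its promoter and whether the line is 1 clone are not given in the sources used here. The other proteins were mapped in Kc167 cells alone, with antibodies labelled NURF (NURF301 below), CP190 and SuHw (Su(Hw) below). Those cells were mock-treated, in series titled mock and mock2 with 3 libraries per antibody each, or had been transfected with double-stranded RNA (5 ug, then 4 days at 25 °C) directed at Nurf301, su(Hw) or Cp190. The mock libraries of Mod(mdg4)67.2 belong to the mock series. The labels do not say that replicates came from separate cultures, so p-values measure only the spread between libraries.

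Su(Hw) is a zinc finger protein that binds the gypsy insulator and many other places in the fly genome. CP190 and the Mod(mdg4)67.2 isoform join it there, and both carry a BTB domain through which such proteins interact. The mod(mdg4) gene makes many isoforms that share this domain and differ in their C-terminal parts, and an antibody against 67.2 is meant to see only that isoform. NURF301, made by E(bx), is the largest subunit of the nucleosome remodeller NURF.

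The 67.2 lists held 2048, 2813 and 1685 peaks in replicates 1, 2 and 3, and the GFP lists held 2204, 2849 and 949. Peak numbers stand for depth, since read numbers were not used here. Replicate 2 had the most peaks in both maps, and GFP replicate 3 stood apart with the fewest of all. On the log2 scale the GFP lists differed from the 67.2 lists by -0.23 (exact two-sided permutation p = 0.9, 3 against 3 libraries, where no p under 0.1 can be reached). Without GFP replicate 3 the difference was 0.23, in the opposite direction. Each peak carries the authors' -log10 q at its summit, here its strength. The weakest peak of the 67.2 lists had a -log10 q of 8.13, 9.13 and 9.52, and that of the GFP lists 1.34, 1.48 and 1.68. The authors' fold enrichment at the summit reached 21.9, 36.9 and 13.3 in the 67.2 lists and 37.0, 31.1 and 21.4 in the GFP lists. The GFP lists therefore reached down to a far lower -log10 q.

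Among the other mock libraries, 3 stood apart. CP190 lists held 10095 to 10553 peaks in mock but 5984, 7988 and 8813 in mock2. NURF301 lists held 7967 to 8226 peaks, except 5449 in mock replicate 3 and 4608 in mock2 replicate 2. Results that rest on these NURF301 libraries are given with and without them.

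Most peaks of either map lay at a site of the other. Of the 67.2 peaks, 97.5%, 88.6% and 99.0% were found by GFP, and of the GFP peaks 91.0%, 85.5% and 99.7% were found by the 67.2 antibody. The libraries with the most peaks, both replicate 2, had the lowest shares, and the ranges of the maps overlapped. The mean share was 95.0 ± 5.6% for 67.2 and 92.1 ± 7.16% for GFP (SD, n = 3 each), a difference of -2.97 percentage points (exact two-sided permutation p = 0.7). Without GFP replicate 2 it was 12.1 points, and without 67.2 replicate 2 it was -15.4.

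The peaks that the other map lacked were weak ones. In every list all of the 100 strongest peaks were found by the other map, and so was every peak in the strongest 2 of 5 equal bins of the list. In the middle bin at least 97.3% were found. In the weakest bin the 67.2 libraries had 91.2%, 58.9% and 97.0% of peaks found by GFP, and the GFP libraries had 65.7%, 45.9% and 98.4% found by 67.2. Replicate 2 was lowest in both maps and replicate 3 highest.

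**Figure D1:**
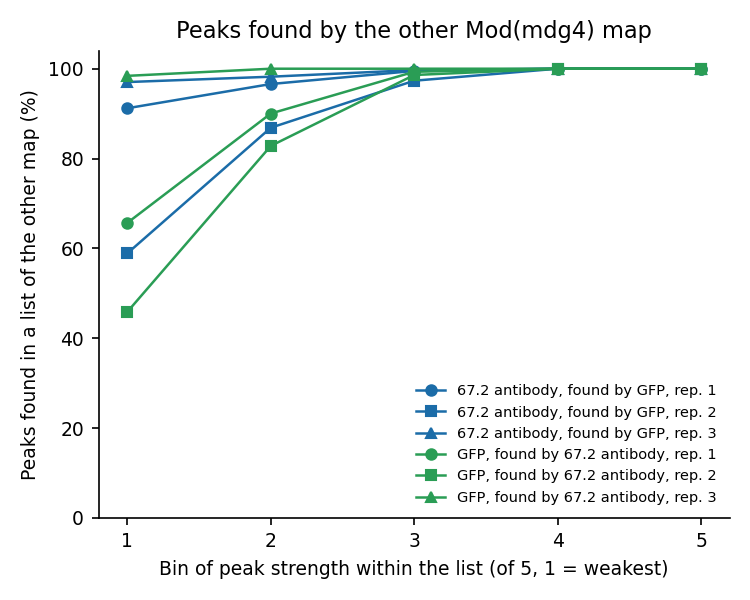
Share of the peaks of each library (percent, vertical axis) that share at least 1 bp with a peak of the other map, by bin of peak strength within the list (horizontal axis, 1 = weakest), with 1 line per library. All lines lie at the top of the axis in the strongest 2 bins, and replicate 2 of each map drops lowest in the weakest bin, to 58.9% for 67.2 and 45.9% for GFP.

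GFP peaks were also restricted to a -log10 q of at least 6. That floor stayed below those of the 67.2 lists (8.13, 9.13 and 9.52), so the maps were brought closer but not matched. The restriction left 1906, 2522 and 759 GFP peaks. The peaks just inside had values of 6.05, 6.01 and 6.02, and those just outside 5.998, 5.98 and 5.99. Of the 298, 327 and 190 peaks removed, the 67.2 antibody had found 58.7%, 37.3% and 98.4%. Sites then numbered 3027, with 2336 found by both, 449 by 67.2 only and 242 by GFP only. The change came from 121 shared sites that became 67.2 only and 289 GFP only sites that no longer had a peak. After the restriction the mean shares found were 92.9 ± 7.44% for 67.2 and 95.9 ± 4.15% for GFP (SD, n = 3 each), a difference of 3.07 points in the opposite direction (exact two-sided permutation p = 0.6). The order of the maps in this share thus turned with the floor set for GFP, and neither difference passed the test.

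Few sites were found by every library of one map and by none of the other. All 6 libraries had a peak at 903 sites, 27.2% of the 3316. All 3 libraries of 67.2 and no GFP library had one at 13 sites (0.392%). All 3 libraries of GFP and no 67.2 library had one at 2 sites (0.0603%). With the GFP restriction these counts were 745 (24.6%), 25 (0.826%) and 0 (0.0%) of 3027. The count for 1 map alone cannot exceed the unshared sites that its shortest list holds. Before the restriction 67.2 replicate 3 had a peak at 17 sites of 67.2 only, and GFP replicate 3 at 3 of GFP only. After it these were 30 and 0.

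One library supplied most of each unshared class. Of the 328 sites of 67.2 only, 280 came from 1 library, and 273 of all (83.2%) from replicate 2 alone. Of the 531 sites of GFP only, 455 came from 1 library, 337 (63.5%) from replicate 2 alone and 117 (22%) from replicate 1 alone. Without 67.2 replicate 2, 55 sites of 67.2 only and 1019 of GFP only were counted. Without GFP replicate 2, these numbers were 824 and 199. Both counts moved most with replicate 2 of each map.

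Unshared sites were also weak within their lists. The median strength percentile of 67.2 only sites was 12.3, 12.8 and 16.9 in the 3 libraries of 67.2, and that of GFP only sites 10.2, 11.7 and 8.85 in those of GFP. Shared sites had medians of 51.1 to 57.5 over the 6 libraries. The median width was 661 bp for shared sites, 371 bp for 67.2 only and 377 bp for GFP only. A shared site merges at least 2 peaks and most unshared sites hold 1, so the merging itself adds to this gap.

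At the 903 sites with a peak in all 6 libraries, the maps also ranked sites alike, though less closely than libraries of the same map did. Spearman's rank correlation between the mean 67.2 and the mean GFP strength was 0.74 and Pearson's r was 0.70. Between single libraries of 67.2, rather than means, the rank correlation was 0.85 to 0.92, and between single libraries of GFP 0.85 to 0.89. These are descriptions across sites, which are not independent replicates and share their libraries. Summits lay close together. The median distance was 12 to 13 bp between 67.2 libraries, 14 to 16 bp between a 67.2 and a GFP library and 16 bp between GFP libraries. Within 50 bp of each other lay 93.7% to 95.4%, 89.3% to 92.8% and 87.5% to 90.0% of summits, in that order. The distances between maps lay between those within 67.2 and those within GFP.

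The strongest shared sites, ranked by their mean percentile over the 6 libraries, carried peaks of all 3 other proteins. The site first in rank, on 2L from 20290285 to 20291822, is intergenic, and its nearest gene is CG12617. Its fold enrichment was 8.48, 16.5 and 6.56 in the 67.2 libraries and 25.7, 16.1 and 15.6 in the GFP libraries. Peaks of CP190, Su(Hw) and NURF301 lay there in all 6 mock libraries of each. A site on 3L from 4839950 to 4841438 at the boundary of CG13707 had folds of 10.7, 14.1 and 7.62 with 67.2 and 19.7, 16.6 and 12.4 with GFP. A site on 3R from 31457504 to 31458825 lay where Gprk2, a kinase that phosphorylates G protein-coupled receptors, meets Loxl1, named for lysyl oxidase. Its folds were 7.15, 10.5 and 5.94 with 67.2 and 28.9, 17.9 and 11.2 with GFP. Folds of different lists share no known scale, so they show only that each library had an enriched peak there.

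The other 7 of the 10 strongest shared sites lay in or at genes of many kinds. They were Glut1, a glucose transporter, shakB, an innexin of gap junctions, CG31559, Pgant9, an enzyme that starts O-glycosylation, ACXD with CG32301, adenylyl cyclase genes, siz, a guanine nucleotide exchange factor for Arf GTPases, and slif, an amino acid transporter. All 10 had CP190 and Su(Hw) in 6 of 6 mock libraries. NURF301 was present in 6 of 6 at 9 of them and in 5 of 6 at the site of ACXD and CG32301.

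A strong shared site also lay at the boundary of su(Hw), the gene for the DNA-binding protein itself, on 3R from 14307588 to 14308798. Its folds were 8.41, 14 and 7.11 with 67.2 and 24.2, 14.5 and 8.53 with GFP. CP190, Su(Hw) and NURF301 had peaks there in 6 of 6 mock libraries. At E(bx), the gene of NURF301, only replicate 2 of 67.2 had a peak, with a fold of 4.17 (3L, 246870 to 247172), where CP190 and NURF301 had peaks in 6 of 6 mock libraries and Su(Hw) in 0. No site of either map lay in or within 2000 bp of mod(mdg4) or Cp190.

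The 13 sites found by all 3 libraries of 67.2 and no GFP library were mostly of the CP190 and Su(Hw) kind. The first by strength lay on 3R from 23532663 to 23533150 at Ugt303B3, a UDP-glycosyltransferase gene, with folds of 8.71, 12.3 and 5.42. The next, on 2L from 12957857 to 12958340, lay 8250 bp from its nearest gene, CG16800, with folds of 6.02, 5.19 and 5.23. Both had CP190 and Su(Hw) in 6 of 6 mock libraries and NURF301 in 0. The next 8 included sites at or nearest to Trpm, a cation channel, IntS8, a subunit of the Integrator complex, Roc2, a RING protein of cullin ubiquitin ligases, CG34325, CG41520, CG10660 and CG5773. Of these 10, 9 had CP190 in 6 of 6 mock libraries, and 9 had NURF301 in 0 to 2. The exception was the site nearest to CG41520 (30085 bp away), with CP190 in 0, Su(Hw) in 2 and NURF301 in 3. The sites nearest to IntS8 and CG5773 lay 2245 and 8146 bp from them.

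Only 2 sites had a peak in all 3 GFP libraries and in no 67.2 library. One, on X from 23376007 to 23376656, is intergenic, and its nearest gene, ATbp, lies 267676 bp away. It had folds of 4.54, 2.74 and 3.89 and no peak of CP190, Su(Hw) or NURF301 in any mock library. The other lay at mnb, a kinase of the DYRK family (X, 17887033 to 17887601), with folds of 3.94, 3.02 and 3.39, CP190 and NURF301 in 6 of 6 mock libraries and Su(Hw) in 0. The next 8 by rank had 2 GFP libraries each. They lay at brat, a translational repressor, side-VIII, nebu, Pzl, CG6425 (nearest gene), dnc, a cAMP phosphodiesterase, Doa, a protein kinase, and ct, a homeobox transcription factor. Of these 8, 7 had CP190 in 5 or 6 and Su(Hw) in 4 to 6 mock libraries, and the site in Pzl had neither.

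The classes differed in how often the other proteins had a peak there (occupancy, in percent of sites). CP190 was at 98.9 ± 0.248% of shared sites in the mock series and at 91.3%, 99.2% and 99.6% in mock2 replicates 1 to 3. At 67.2 only sites it was at 87.5 ± 1.40% in mock and at 61.3%, 92.1% and 99.1% in mock2. At GFP only sites it was at 62.1 ± 0.849% in mock and at 23.0%, 55.7% and 61.2% in mock2 (all SD, n = 3). The mock2 library with 5984 peaks was the lowest in each class. In each of the 6 libraries the shared sites came first and the GFP only sites last. The mean difference between shared and GFP only sites was 43.5 ± 12.5 points (SD, n = 6, exact two-sided sign-flip permutation p = 0.03125, the smallest that 6 libraries allow, adjusted p = 0.0375 over 6 tests). Between 67.2 only and GFP only sites it was 31.5 ± 6.66 points, positive in 6 of 6 libraries (same exact test, adjusted p = 0.0375). Without 67.2 replicate 2 these differences were 26.8 and 18.5 points. With the GFP restriction they were 28.5 and 18.01 points, and with a -log10 q of at least 20 in all lists 17.6 and 10.5 points, all still past the test. At the floor of 20, which also applied to the lists of the other proteins, the GFP only class held only 19 sites.

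Su(Hw) was at 94.2 ± 1.59% of shared sites in mock and 96.7 ± 0.402% in mock2 (SD, n = 3). Shared sites exceeded GFP only sites by 43.0 ± 1.33 points in 6 of 6 libraries (exact sign-flip permutation p = 0.03125, adjusted p = 0.0375). This was 27.9 points with the GFP restriction and 9.83 with a -log10 q of at least 20 in all lists, both past the test. At 67.2 only sites Su(Hw) was at 52.4%, 55.5% and 41.2% in mock and at 72.9%, 69.8% and 70.7% in mock2. At GFP only sites it was at 50.8%, 52.9% and 47.3% in mock and at 54.6%, 53.5% and 55.2% in mock2. These unshared classes overlapped in the mock series and were apart in mock2. Their difference was 8.03 ± 10.0 points over 6 libraries (exact sign-flip permutation p = 0.156, adjusted p = 0.156), with a mean of -0.65 in mock and 16.7 in mock2. It passed the test without 67.2 replicate 2 (15.7 points) and without GFP replicate 2 (30.4 points). Its direction turned with the GFP restriction, to -2.87 points (exact adjusted p = 0.469), and with a -log10 q of at least 20 in all lists, to -6.12 points, where it passed (exact adjusted p = 0.0375). The Su(Hw) values at that floor rest on only 19 GFP only sites, and the test does not cover the spread between sites.

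NURF301 was at 57.8%, 52.4% and 24.0% of shared sites in mock and at 54.1%, 18.8% and 46.6% in mock2, low in both libraries with few peaks. At 67.2 only sites it was at 30.2% to 35.7% and at GFP only sites at 9.98% to 15.4% over the 6 libraries. Shared sites exceeded GFP only sites by 28.8 ± 14.2 points in 6 of 6 libraries (exact sign-flip permutation p = 0.03125, adjusted p = 0.0375), and by 37.6 points without both libraries with few peaks. The 67.2 only sites exceeded GFP only sites by 19.8 ± 0.344 points in 6 of 6 libraries (same exact test, adjusted p = 0.0375). That last difference rested on 1 Mod(mdg4) library. Without 67.2 replicate 2 it was 0.672 points (exact adjusted p = 0.594), and without GFP replicate 2 it was 8.84. With 2 of the 3 libraries of a map required at a site, it turned to -9.01 points (exact p = 0.03125).

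Strength and width moved with these differences. Over the strongest 949 peaks of each list, as many as the shortest list held, shared sites exceeded GFP only sites by 2.33 points for CP190 and 3.34 for Su(Hw), and by 37.3 for NURF301. With each peak replaced by its summit and 150 bp on either side, the differences were 43.1, 42.9 and 28.6 points, close to those with full peaks.

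**Figure D2:**
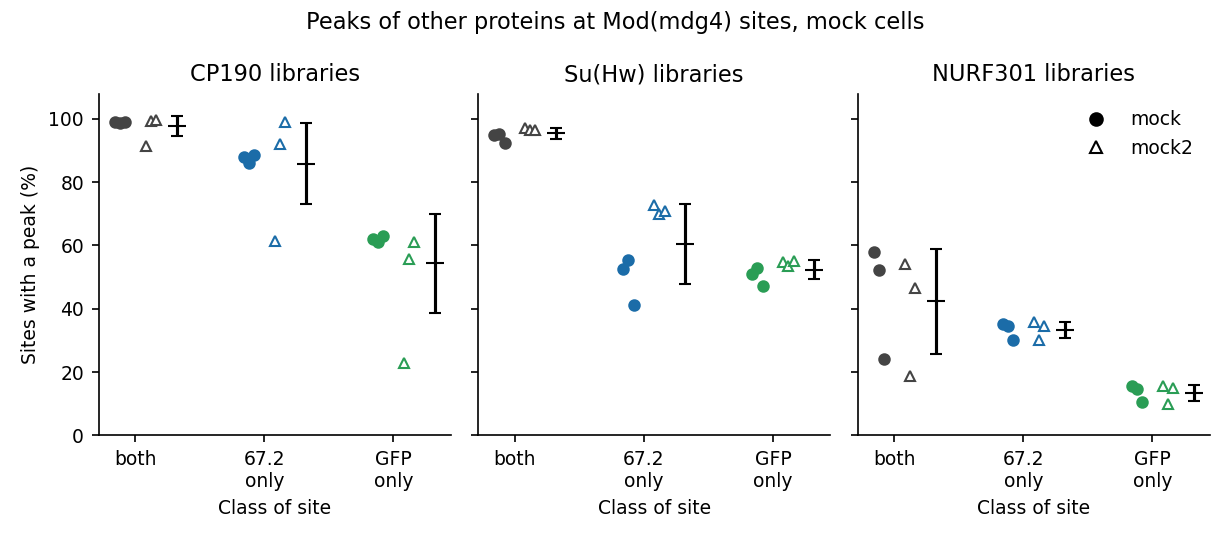
Share of Mod(mdg4) sites with a peak of CP190, Su(Hw) or NURF301 (percent, vertical axis) by class of site (horizontal axis) in mock cells. Each point is 1 library, filled circles for mock and open triangles for mock2, and bars give the mean ± SD over 6 libraries. In the CP190 and NURF301 panels the GFP only sites are lowest, with means of 54.4% and 13.5%.

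Site by site, with a protein counted as present when at least 4 of its 6 mock libraries had a peak, the classes had different combinations. Among shared sites 1329 (54.1%) had CP190 and Su(Hw) without NURF301 and 1002 (40.8%) had all 3, while 86 (3.50%) had CP190 and NURF301 without Su(Hw). Among 67.2 only sites 155 (47.3%) had CP190 and Su(Hw), 96 (29.3%) had CP190 and NURF301 without Su(Hw), and 16 (4.88%) had all 3. Among GFP only sites 243 (45.8%) had CP190 and Su(Hw), 46 (8.66%) had CP190 and NURF301, 20 (3.77%) had all 3 and 193 (36.4%) had none. No peak of any of these proteins in any of the 18 mock libraries was seen at 3 shared sites, 1 site of 67.2 only and 176 sites of GFP only (33.2% of the class). With the GFP restriction 45 of 242 GFP only sites (18.6%) lacked all peaks. The pairing of CP190 and NURF301 without Su(Hw) had its highest share in the 67.2 only class, and sites without any partner in the GFP only class. Most sites of both classes came from 1 library, and 83.2% of the 67.2 only sites from replicate 2 alone.

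Among GFP only sites, partner peaks were given by the number of supporting libraries. Those in 1 library had CP190 at 50.4 ± 15.1%, Su(Hw) at 49.3 ± 2.96% and NURF301 at 11.2 ± 1.97%, and the 74 in 2 libraries at 79.1 ± 18.9%, 72.8 ± 2.89% and 26.8 ± 6.13% (SD over 6 mock libraries). The 2 sites in 3 libraries, named above, had CP190 at 1 of 2 and Su(Hw) at 0. Among 67.2 only sites NURF301 was at lower shares with more libraries, with 35.9 ± 2.37% at the 280 sites in 1 library, 22.4 ± 4.92% at the 35 in 2 and 7.69 ± 4.87% at the 13 in 3.

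The classes also had different positions, given here without a test. Sites less than 500 bp from where an annotated protein-coding gene starts or ends were called gene boundary sites. Boundaries held 31.3% of shared sites, 37.2% of 67.2 only sites and 17.0% of GFP only sites. Genes held a further 43.8%, 41.2% and 49.5%, and 25.0%, 21.6% and 33.5% were intergenic. Sites with CP190 but not Su(Hw) were at boundaries in 54.0%, 59.5% and 56.6% of cases in these classes, and sites with both proteins in 30.5%, 25.7% and 19.0%. The difference between those partner groups was larger than that between the classes within the CP190 without Su(Hw) group. The arm 3R held 25.3% to 25.8% of each class and X 16.8% to 20.3%, while 2L held 18.1% of shared, 18.6% of 67.2 only and 13.2% of GFP only sites.

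Among shared sites, the strength of Mod(mdg4) ran with the presence of NURF301. This relation was noticed in the data and is given without a test. By 67.2 strength, from the weakest bin to the strongest, NURF301 was at 21.8 ± 4.81%, 19.3 ± 7.35%, 28.8 ± 17.6%, 59.0 ± 31.2% and 82.8 ± 23.2% of sites (SD over 6 mock libraries). By GFP strength it was at 19.1 ± 3.61%, 24.4 ± 12.1%, 35.8 ± 19.7%, 54.6 ± 27.6% and 77.6 ± 20.8%. The strongest bin exceeded the weakest by 61.0 ± 18.8 points by 67.2 (range over libraries 29.8 to 74.4) and by 58.5 ± 17.5 by GFP (30.0 to 71.3). Without the NURF301 libraries of few peaks these were 72.7 ± 1.16 and 69.4 ± 2.27 points. Over the strongest 949 peaks of each list they were 38.6 ± 15.3 and 35.0 ± 19.5. Ordered by Su(Hw) strength instead, over the 2403 shared sites with a Su(Hw) peak in a mock library, the bins went from 28.5 ± 5.12% to 51.4 ± 27.2%. The strength of 67.2 and Su(Hw) was related by a Spearman's rank correlation of 0.33 and that of GFP and Su(Hw) by 0.32, against 0.82 between 67.2 and GFP, over 2403 sites.

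Width moved with strength here, from a median of 508 bp in the weakest 67.2 bin to 925 bp in the strongest. In windows of 1 width, 150 bp on either side of the strongest Mod(mdg4) summit of each site, NURF301 was at 21.1 ± 4.77% of the weakest and 82.3 ± 23.4% of the strongest 67.2 bin, and at 18.4 ± 3.46% and 77.0 ± 21.2% by GFP (SD, n = 6).

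The knockdown cells were compared with all 6 mock libraries at the shared sites. By the form of their titles, the NURF301 and CP190 knockdowns match the mock series and the Su(Hw) knockdown matches mock2. Against the matching series alone the exact permutation p was 0.1, and 0.2 after CP190 knockdown, the smallest that these libraries allow. The p-values under 0.05 below thus rest on pooling both series. The knockdowns share these mock libraries. Mod(mdg4) itself was mapped in mock and Kc-MOD-GFP cells only, so the sites are those of cells without a knockdown.

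The libraries with the antibody against the targeted protein come first. After NURF301 knockdown NURF301 was at 0.285%, 0.0407% and 0.0407% of shared sites, against a mock mean of 42.3 ± 16.6% (exact permutation p = 0.0238 over all splits, the smallest 3 against 6 libraries allow, adjusted p = 0.0318 over 8 tests). Those lists held 253, 1 and 24 peaks in all. After Su(Hw) knockdown Su(Hw) was at 2.97%, 3.09% and 3.83%, against 95.4 ± 1.73% (same exact test, adjusted p = 0.0318), from lists of 74, 77 and 96 peaks. After CP190 knockdown CP190 was at 22.5% and 24.5%, against 97.8 ± 3.21% (exact p = 0.0714, the smallest 2 against 6 allow, adjusted p = 0.0714, not past 0.05), from lists of 1203 and 1280 peaks.

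CP190 fell at shared sites, and its lists as a whole were shorter, after knockdown of NURF301 and of Su(Hw). After NURF301 knockdown it was at 66.5%, 40.6% and 53.7% of them, a change of -44.2 points from the mock mean (exact permutation adjusted p = 0.0318). After Su(Hw) knockdown it was at 12.5%, 10.5% and 11%, a change of -86.4 points (same exact test, adjusted p = 0.0318). No knockdown library overlapped the mock libraries. NURF301 was at 2.65%, 1.34% and 0.895% after Su(Hw) knockdown, a change of -40.7 points (exact adjusted p = 0.0318), and at 14% and 15.6% after CP190 knockdown, a change of -27.5 points (exact adjusted p = 0.0714, not past 0.05). Su(Hw) was at 83.2%, 67% and 82.4% after NURF301 knockdown, a change of -17.9 points (exact adjusted p = 0.0318). Peak lists were shorter in these cells as a whole. In mock cells they held 5984 to 10553 peaks of CP190, 3990 to 5358 of Su(Hw) and 4608 to 8226 of NURF301. After NURF301 knockdown they held 4091 to 5463 of CP190 and 2625 to 3539 of Su(Hw). After Su(Hw) knockdown they held 3688 to 4227 of CP190 and 1819 to 2027 of NURF301, and after CP190 knockdown 4403 and 4574 of NURF301. The part of list length in the changes was not tested. Leaving out the NURF301 mock libraries of few peaks, the changes of NURF301 were -52.6 points after its own knockdown and -51.1 after that of Su(Hw), with an exact adjusted p of 0.0762, and 3 against 4 libraries cannot reach 0.05. After CP190 knockdown the change of NURF301 was then -37.9 points.

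The classes of site held different shares of what was left. After Su(Hw) knockdown CP190 was at 33.8%, 33.2% and 32.9% of 67.2 only sites and at 10.5%, 9.98% and 9.79% of GFP only sites, so the 67.2 only class was above the shared sites in all 3 libraries. NURF301 was then at 15.9%, 8.23% and 2.74% of 67.2 only sites and at 3.77%, 1.88% and 1.32% of GFP only sites. After CP190 knockdown NURF301 was at 20.4% and 23.8% of 67.2 only sites, above the 14% and 15.6% of shared sites, and at 7.91% and 9.79% of GFP only sites. After NURF301 knockdown the order for CP190 was that of mock cells, with 30.5% to 37.8% at 67.2 only and 10.7% to 18.6% at GFP only sites. Su(Hw) was then at 16.8% to 27.1% of 67.2 only and 31.8% to 42.8% of GFP only sites, so the GFP only class was the higher of the unshared classes in all 3 libraries. In mock cells 67.2 only was the higher in 5 of 6 Su(Hw) libraries, and in 3 of 6 with the GFP restriction. Mock replicate 3 had 41.2% at 67.2 only and 47.3% at GFP only sites. The differences between classes after knockdown were not tested, and 3 libraries could not reach an exact sign-flip p under 0.25. Of the 328 sites of 67.2 only, 273 came from 67.2 replicate 2 alone. The shares of that class after knockdown were not computed without this library.

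**Figure D3:**
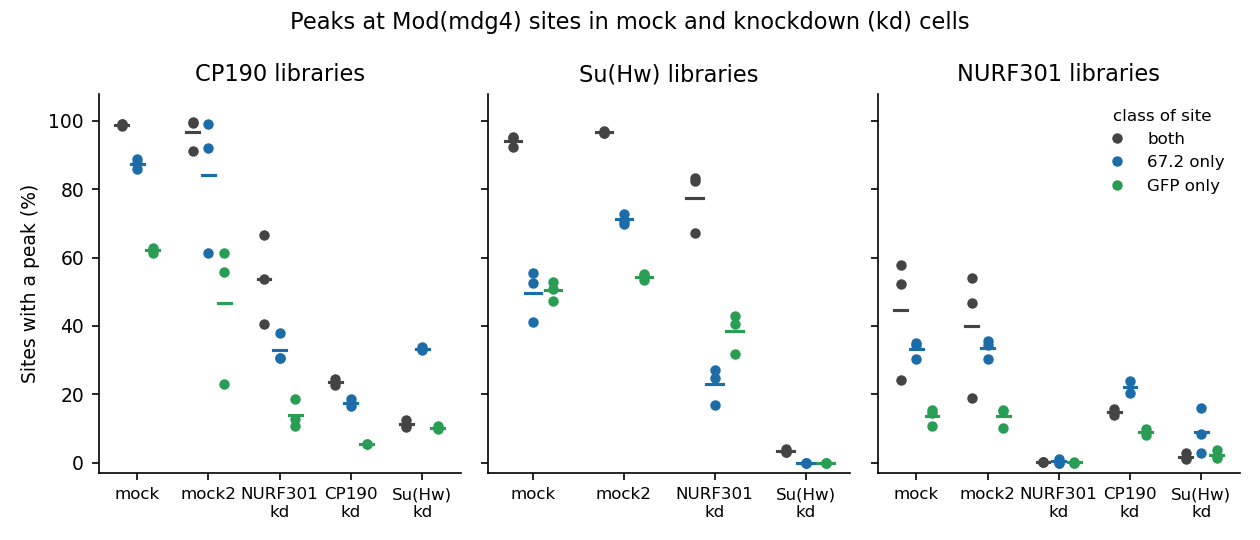
Share of Mod(mdg4) sites with a peak of CP190, Su(Hw) or NURF301 (percent, vertical axis) in mock, mock2 and knockdown (kd) cells (horizontal axis), by class of site. Points are libraries and short lines their means. CP190 after Su(Hw) knockdown is highest at 67.2 only sites, at 32.9% to 33.8%. Of the 67.2 only sites 83.2% came from 67.2 replicate 2 alone.

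The strength of Mod(mdg4) also ran with the CP190 that stayed. After CP190 knockdown CP190 was at 11.4%, 5.80%, 8.23%, 29.7% and 62.5% of the shared sites from the weakest to the strongest 67.2 bin, and at 8.84%, 8.05%, 12.4%, 27.6% and 60.8% by GFP (means of 2 libraries). Ordered by Su(Hw) strength, over the 2403 shared sites with a Su(Hw) peak, it was at 15.8%, 23.8%, 26.9%, 24.8% and 20.5%, with no such rise. After NURF301 knockdown CP190 was at 30.2 ± 10.9% of the weakest and 87.4 ± 9.44% of the strongest 67.2 bin (SD, n = 3), at 25.4 ± 10.5% and 82.2 ± 10.5% by GFP, and at 30.2 ± 6.25% and 66.2 ± 18.1% by Su(Hw). After Su(Hw) knockdown the weakest and strongest 67.2 bins were close, at 16.5 ± 0.469% and 14.1 ± 2.65%, with 7.32 ± 0.538% in the middle one. The orders by 67.2 and by GFP strength gave similar shares, although Mod(mdg4) itself was not mapped in these cells.

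**Figure D4:**
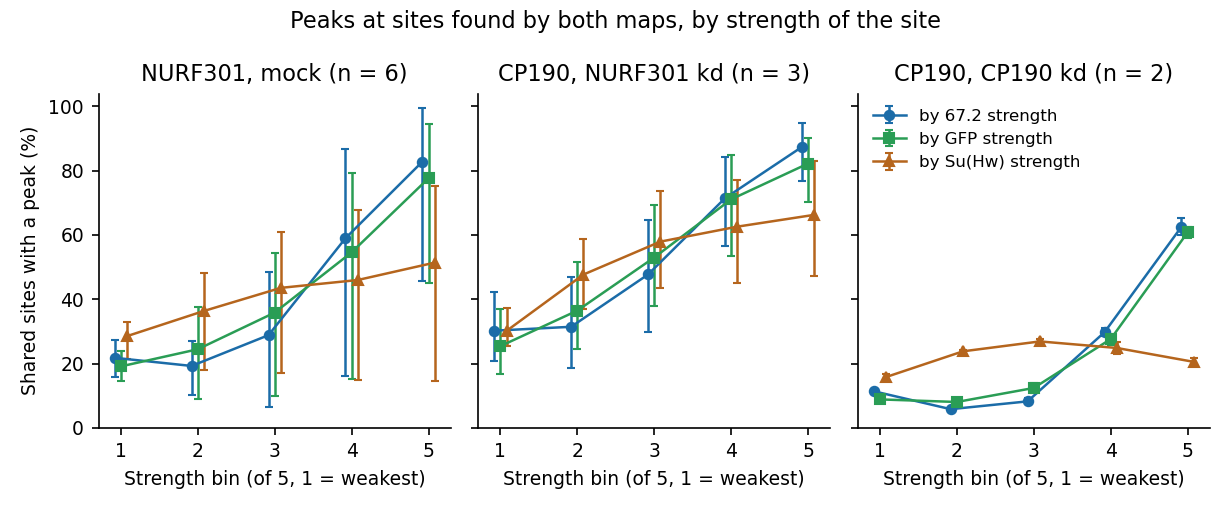
Share of shared sites with a peak (percent, vertical axis) by bin of site strength (horizontal axis, 1 = weakest), for NURF301 in mock cells and for CP190 after NURF301 and CP190 knockdown (kd). Points are means, bars the lowest and highest library, and colours the protein whose strength ordered the sites. The order by Su(Hw) covers the 2403 shared sites with a Su(Hw) peak. In the right panel the lines by 67.2 and by GFP reach 62.5% and 60.8% in the strongest bin, and the line by Su(Hw) 20.5%.

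Genes near Mod(mdg4) sites were counted by lists of known function. A protein-coding gene was counted when a site lay in it or within 2000 bp. Of 13911 such genes, 16.3% had a shared site, 2.87% a 67.2 only site, 2.73% a GFP only site and 19.6% any site. Genes of neurons had sites at 22 of 28, of which 20 had a shared site, 4 a 67.2 only and 10 a GFP only site. Their median length was 32348 bp against 2161 bp over all genes, and a longer gene has more room for a site. The part of length in this count was not tested, nor was it for the lists below. Their shares and median lengths stand beside the 19.6% and 2161 bp of all genes. The neuronal gene pros, a transcription factor of neural lineages, had 4 shared sites. The strongest of them, on 3R from 11338191 to 11338985, had folds of 13.1, 29.3 and 12.5 with 67.2 and 6.55, 9.08 and 5.92 with GFP.

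Hemocyte genes, which mark the blood cell lineage that Kc167 cells resemble, had sites at 6 of 20 (30.0%, median length 10810 bp). At srp, a GATA factor of blood cells, a shared site on 3R from 16003914 to 16004933 had folds of 9.60, 16.5 and 6.42 with 67.2 and 7.46, 10.4 and 5.48 with GFP. Pxn, a matrix peroxidase, had 3 shared sites and Mmp2, a matrix metalloprotease, had 4. Hml, a hemocyte adhesion protein, had a shared site and a 67.2 only site, the latter nearest to Tsp68C.

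A list of 16 loci held y, ct and N, and also twi, ss, sgg, fz3 and tw. Sites were found at 10 of them (62.5%, median length 21768 bp), and fz3 and tw were counted for the same site. At y, the pigmentation gene where gypsy insulation was studied, a shared site on X from 361132 to 362130 had folds of 9.97, 14.5 and 7.39 with 67.2 and 12.4, 19.5 and 6.82 with GFP. The gene ct had 3 shared and 2 GFP only sites, and the 2 strongest shared ones had a peak in all 6 libraries. The mesoderm regulator twi had 4 shared sites and 1 of 67.2 only. At N, the Notch receptor gene, only a GFP only site was found, with folds of 3.48 and 2.65 in replicates 1 and 2, CP190 in 6 and Su(Hw) in 0 of 6 mock libraries.

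Hox genes had sites at 3 of 8 (37.5%, median length 30563 bp). At Antp a shared site on 3R from 6911984 to 6912740 had folds of 8.04, 13.6 and 6.09 with 67.2 and 14.8, 16.2 and 6.89 with GFP. The sites at pb and Abd-B were weak, and each was found by 1 library of a map. Insulator protein genes had sites at 2 of 26 (7.69%, median length 3280 bp), su(Hw) and shep, an RNA-binding protein that acts on insulators. Genes of NURF and other remodellers had sites at 5 of 22 (22.7%, median length 5556 bp). Shared ones were counted at tou, Acf and e(y)3 and 67.2 only ones at E(bx) and Ino80. The site counted for e(y)3 lay at the boundary of Rcd-1 and CG12237. The site at tou had a peak in all 6 libraries, with folds of 9.12, 11.4 and 6.62 with 67.2 and 15.8, 13.2 and 8.64 with GFP. Cytoplasmic ribosomal protein genes had sites at 9 of 92 (9.78%, median length 1326 bp), of which 8 had a shared one. Some of these sites lay at a neighbouring gene, such as that counted for RpS21 at the boundary of CG3104. Polycomb and Trithorax group genes had sites at 0 of 24 (median length 8260 bp).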

How the data were processed

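Peak lists of 46 of the 63 samples were used. The 17 input samples have no list here. The authors called peaks library by library. Per the submitters' processing notes, MACS2 2.2.7.1 was used, and so were Picard 2.25.2, SAMtools 1.12 and Bowtie2 2.4.2. Settings, control library and genome build are not given in the sources used here. The deposited lists hold a score, 10 times the -log10 q with decimals removed, a ratio (fold enrichment at the summit), the -log10 p-value and -log10 q-value, and the summit offset. All are the authors' values and were used to rank or filter peaks within a list and to describe single sites. Fold values of different lists share no known scale and were not compared.

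Peaks on the 6 main chromosomes sharing 1 bp or more were merged. The tools were pandas 2.3.3, scipy 1.17.1, numpy 2.4.6 and, for figures, matplotlib 3.10.9, under Python 3.11.15. Merging and tests were tested on simulated data. Sequence names and extents are those of Release 6. RefSeq genes of that release gave names and neighbours only, and coordinates are those of sites, counted from 1. Exact two-sided permutation tests (20, 84 or 28 splits) compared libraries, and sign flips over 6 mock libraries (64 flips) compared classes, with Benjamini-Hochberg adjustment over the 6 or 8 tests. Sites were named by rank of mean percentile within class, the first 10 of each, preferring sites found by all libraries of a map, and from gene lists. Genes singled out within the lists were chosen with their values in view. The members and lists were chosen with earlier results of these data known. Alternatives were other q floors, equal list lengths, summits, library support, series and left-out libraries.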

Additional observations from a re-analysis of the deposited data

Results flagged for a closer look

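The CP190 list of mock2 replicate 1, the shortest of the 6 CP190 mock lists with 5984 peaks, lay far below the other 5 in each class of site. CP190 was at 91.3% of shared sites, 61.3% of 67.2 only sites and 23.0% of GFP only sites there. A gap of this kind is met by chance in about 1 of 20 groups, and these 3 values come from 1 library.

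With GFP peaks restricted to a -log10 q of at least 6, the Su(Hw) difference between 67.2 only and GFP only sites went in opposite directions in the mock series. It was -10.5 percentage points in mock, where all 3 libraries were below 0, and 4.72 points in mock2, where all 3 were above 0. Between the series the difference had an exact permutation p of 0.1, the smallest that 3 against 3 libraries allow.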

How the results depend on the processing

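Of 164 values under other settings, leave-one-out settings aside, 117 kept their direction and side of the threshold or stayed close, and 47 did not. Some of the 47 were settings with too few libraries to pass the test, named below, and for the others the cause was not tested. With a -log10 q of at least 20 in all lists, 1634 sites were shared, 861 were 67.2 only and 19 GFP only. With the strongest 949 peaks per list these were 951, 158 and 173, and with 2 of 3 libraries required 48 sites were 67.2 only and 76 GFP only. Restricting GFP at 6 left 242 GFP only sites. The share found by the other map, GFP minus 67.2, was 3.07 points with that restriction and 18.5 at 20. Peak numbers cannot differ or be given at equal list length or with 2 of 3 libraries required. For Su(Hw), 67.2 only minus GFP only was -2.87 (GFP restricted), -6.12 (at 20, past the test), 1.67 (strongest 949, past the test), 14.2 (2 of 3 libraries, past the test) and -0.65 (mock alone). For NURF301 it was 3.75 (at 20), 9.92 (strongest 949), -9.01 (2 of 3 libraries) and 19.8 without both libraries with few peaks. NURF301 by strength, strongest minus weakest bin, was 38.6 by 67.2 and 35.0 by GFP over the strongest 949.

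A series alone has 3 libraries and cannot pass. In mock and mock2 alone, shared minus GFP only was 36.8 and 50.1 for CP190, 43.8 and 42.3 for Su(Hw), 31.2 and 26.4 for NURF301 (37.6 without both libraries with few peaks). The 67.2 only minus GFP only values were 25.4 and 37.5 for CP190 and 19.7 and 19.9 for NURF301. Likewise, leaving out 1 of 6 partner libraries allows no exact p under 0.0625.

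Same-numbered libraries were checked for pairing. Between 67.2 and GFP their deviations correlated by 0.0929 to 0.154, each library best with its own number, and in 0 of 7 comparisons of 3 pairs were all over 0.1, so the numbers were not used as pairs. With the replicate block against the matching mock series the changes after NURF301 and Su(Hw) knockdown were those of that series without the block. After CP190 knockdown, CP190 changed by -75.3 with and -75.4 without the block and NURF301 by -40.3 and -29.9. There the block used only mock replicates 1 and 2, and so left out NURF301 mock replicate 3, a list of 5449 peaks. None of these fits can pass. NURF301 changed by -44.6 after its own and by -38.2 after Su(Hw) knockdown, CP190 by -45.3 after NURF301 and -85.4 after Su(Hw) knockdown, and Su(Hw) by -16.6 after NURF301 and -93.4 after its own knockdown. Without both NURF301 libraries with few peaks the first pair were -52.6 and -51.1, and NURF301 after CP190 knockdown was -37.9. The replicate block left peak number at -0.23 and share found at -2.97.

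Leaving out 1 library at a time gave 1973 to 2457 shared, 55 to 824 67.2 only and 199 to 1019 GFP only sites. Peak numbers differed by -0.56 to 0.23 and shares found by -15.4 to 12.1. Shared minus GFP only was 26.8 to 46.2 for CP190, 31.1 to 49.5 for Su(Hw) and 26.1 to 32.8 for NURF301. The 67.2 only minus GFP only values were 18.5 to 39.1, 3.08 to 30.4 and 0.672 to 20.1. After NURF301 knockdown NURF301 changed by -47.4 to -39.1, CP190 by -50.7 to -37.7 and Su(Hw) by -20.7 to -12.7. After Su(Hw) knockdown Su(Hw) changed by -94.2 to -91.8, CP190 by -89.6 to -86.0 and NURF301 by -46.8 to -37.6. After CP190 knockdown CP190 changed by -75.6 to -71.7 and NURF301 by -32.5 to -24.4. NURF301 by strength bin differed by 58.3 to 67.7 (67.2) and 54.7 to 64.2 (GFP).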
